A study of Mus musculus with 8 samples.

Results

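The MYC network and the ribosome biogenesis machinery were followed through 40 genes given by symbol, all 40 of which were found among the 24054 rows of the deposited expression table. They were not chosen by a measured value. Of the 40, 5 belong to the MYC network and 35 to ribosome biogenesis: 5 nucleolar scaffold proteins, 4 genes of RNA polymerase I, 4 of box C/D and 3 of box H/ACA small nucleolar ribonucleoproteins (snoRNPs), and 9 and 10 assembly factors of the small and the large ribosomal subunit. All 40 were among the 11455 rows tested.

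RNA was measured by mRNA sequencing in DC2.4, an immortalised dendritic cell line from C57BL/6 mice that is used as a model of allergen-exposed antigen-presenting cells. Cells of all 4 groups were grown in 10% serum and then held for 4 h in 0.1% serum. For the next 4 h they stayed untreated or received 250 PNU/ml (protein nitrogen units) of 1 of 3 allergen extracts, from house dust mite (called HDM here), from timothy grass (Grass) or from cat hair (Cat). Each group holds 2 libraries, which the series text calls independent, and the labels name no vehicle for the untreated cells. All libraries come from 1 cell line, so the spread behind each p-value is that among these 8 libraries, which may be technical. The test used (limma) also draws each gene's spread toward a trend over all rows.

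Depth was 31938460 to 43316229 reads per library. The values below are the deposited ones, reads scaled so that libraries sum to 975215 to 1047501, and 1 read was worth 0.0226 to 0.0308. Of 14 dendritic and myeloid marker genes 12 passed the filter on low values and their summed level lay between 1500 and 1630, although H2-Ab1 was at 0 in every library and Flt3 at no more than 0.0944. Fibroblast, epithelial and B-cell markers summed to at most 0.138 in any library, and of 4 T-cell markers Cd8a alone passed the filter (0.461 to 0.98).

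MYC binds DNA as a pair with MAX, most often at the E-box sequence CACGTG, and in many cell types raises transcription of genes that make ribosomes. The MXD proteins compete with it for MAX and repress the same sites. Ribosome production starts in the nucleolus, where RNA polymerase I transcribes the ribosomal RNA precursor, snoRNPs direct its chemical modification, and assembly factors fold and cut it into the small and large subunits. The programme is sensitive to growth signals such as serum, and it accompanies proliferation in cultured cells. By textbook accounts DC2.4 was made with retroviral MYC and RAF; whether reads of such a copy enter the Myc row was not tested.

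The E-boxes of the members are shown because they are the letters a MYC–MAX pair reads. RefSeq promoters (build GRCm38.p6, 250 bases before to 50 after the start) were at hand for 33 members, and 8 of these held CACGTG, which reads the same on both strands. That is 24.2%, beside 8.09% of the 27025 genes in the same promoter table. The 30-base windows below are written 5′ to 3′ on the strand of the gene, with the E-box in capitals.
Mxd4: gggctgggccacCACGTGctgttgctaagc
Nop2: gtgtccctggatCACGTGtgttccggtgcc
Max: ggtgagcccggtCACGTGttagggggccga
Pes1: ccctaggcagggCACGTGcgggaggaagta
Wdr43: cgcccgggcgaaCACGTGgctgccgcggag
Tsr1: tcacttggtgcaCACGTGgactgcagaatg
Utp20: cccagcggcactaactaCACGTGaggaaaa
Mybbp1a: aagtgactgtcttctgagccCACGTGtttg
The first base of the E-box lies 219 bases before the start in Mxd4, 60 before it in Nop2 and 3 before it in Max. It lies 2 bases after the start in Pes1, 17 in Wdr43, 24 in Tsr1, 37 in Utp20 and 40 in Mybbp1a. Of these 8 members Wdr43, Max, Pes1 and Mybbp1a were called lower with both HDM and Grass. Wdr43 and Max are the ones whose Grass call also held with TMM, DESeq2 and upper-quartile scaling, and their whole promoters are given with the E-box in capitals, Wdr43 at chr17:71615965-71616264 on the plus strand and Max at chr12:76962199-76962498 on the minus strand.
Wdr43: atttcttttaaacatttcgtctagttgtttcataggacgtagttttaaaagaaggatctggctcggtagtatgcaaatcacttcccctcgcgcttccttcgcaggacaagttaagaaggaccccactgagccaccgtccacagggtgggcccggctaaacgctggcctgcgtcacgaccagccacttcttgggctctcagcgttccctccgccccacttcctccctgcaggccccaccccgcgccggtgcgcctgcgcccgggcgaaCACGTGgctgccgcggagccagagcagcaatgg
Max: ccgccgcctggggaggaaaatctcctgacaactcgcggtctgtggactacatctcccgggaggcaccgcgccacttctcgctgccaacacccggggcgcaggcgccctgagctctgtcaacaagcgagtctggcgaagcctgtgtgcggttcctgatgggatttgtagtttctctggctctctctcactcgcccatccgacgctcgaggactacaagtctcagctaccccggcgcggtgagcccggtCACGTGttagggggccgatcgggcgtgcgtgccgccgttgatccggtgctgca
These matches are a description of letters and not of binding. With the deposited scaling 4, 6 and 1 of the 8 members with the E-box were called lower with HDM, Grass and Cat, and 6, 12 and 2 of the 25 whose promoter lacks it, where 21.9%, 25.4% and 13.6% of all rows tested were called lower. The calls that also held with TMM, DESeq2 and upper-quartile scaling were 1 of 8 and 4 of 25 with HDM. They were 2 of 8 and 7 of 25 with Grass, and 1 of 8 and 0 of 25 with Cat. The share of all rows that held in this way was not counted. These counts are small, and whether calls differ with the E-box was not tested. The 7 members with no promoter entry are Fbl, Bop1, Myc, Rrp12, Nol6, Rrs1 and Npm1.

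Myc itself was close to the limit of detection. It had 13 and 20 reads in the untreated libraries, 19 and 20 with HDM, 12 and 21 with Grass, and 18 and 15 with Cat. As values these are 0.375 and 0.584, 0.448 and 0.615, 0.271 and 0.553, and 0.511 and 0.414. The groups overlap, and the 2 libraries of a group differ by as much as any pair of groups. Its log2 fold changes were 0.14 with HDM, -0.21 with Grass and -0.02 with Cat, each with an SE of 0.34. The 95% intervals reached from -0.57 to 0.84, from -0.92 to 0.49 and from -0.73 to 0.68, so a change of Myc within these bounds was not detectable at this depth. Its paralogs were lower still: Mycn had 1 read in HDM 1 and 0 elsewhere, and Mycl had 2 to 4 reads per library.

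Max, the shared partner of MYC and the MXD proteins, fell with HDM and Grass. Its value was 136 and 134 in untreated cells, 126 and 125 with HDM, 120 and 124 with Grass, and 130 and 131 with Cat. Every allergen library lay below both untreated ones. In bulk RNA, fewer cells that express a gene and less RNA per cell cannot be told apart. The log2 fold change was -0.11 (SE 0.03, limma adjusted p = 0.0104) with HDM, -0.15 (SE 0.03, adjusted p = 0.000549) with Grass and -0.05 (SE 0.03, adjusted p = 0.294) with Cat. The HDM call was lost with each of the 4 other scalings of the libraries and without HDM 2. The Grass call was lost with 1 of these scalings, by total reads.

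Mxd4, a repressor that competes with MYC for MAX, was the MYC network member with the largest called change. It had values of 6.57 and 7.53 in untreated cells, 9.79 and 7.38 with HDM, 9.32 and 9.59 with Grass, and 6.45 and 7.89 with Cat. Both Grass libraries lay above both untreated and both Cat libraries, whereas the HDM libraries lay far apart. It rose with Grass by 0.42 (log2; SE 0.12, limma adjusted p = 0.0114), and the direction held with all 4 other scalings. The call was lost without untreated 1 (0.33), without Grass 1 (0.44) and without Grass 2 (0.40). Mxd4 shares 514 exon bases with the antisense gene Gm42846 in a mouse annotation (GENCODE M21), and the strand setting of the counting is not stated, so reads of the pair cannot be told apart.

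The other MXD members were not called. Mxd1 had values of 10.9 and 12.8 in untreated cells, 13.0 and 14.2 with HDM, 12.4 and 12.1 with Grass, and 12.0 and 11.1 with Cat. Mxd3 had values of 3.95 and 3.79, 4.93 and 3.91, 4.72 and 4.74, and 3.75 and 3.64 in the same order. The Grass libraries of Mxd3 lay above both untreated ones, but its log2 fold change of 0.28 (SE 0.13, limma adjusted p = 0.0917) missed the threshold. Among 5 tested genes of a wider MYC network list, the MAX-binding repressors Mnt (0.17, SE 0.04) and Mxi1 (0.20, SE 0.04) also rose with Grass, with limma adjusted p-values of 0.000705 and 0.000285. In the same comparison Mlx and Mlxip, which pair with each other, fell by 0.25 (SE 0.04, adjusted p = 2.06e-05) and by 0.23 (SE 0.04, adjusted p = 1.38e-05). Mnt was at 100 and 93.7 in untreated cells, 99.8 and 103 with HDM, 108 and 110 with Grass, and 93.0 and 96.7 with Cat, so that the Grass libraries were the highest. Mlx was at 72.6 and 74.5, 59.9 and 64.5, 61.8 and 61.8, and 67.2 and 69.2, with all 6 allergen libraries below the untreated ones.

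**Figure D1:**
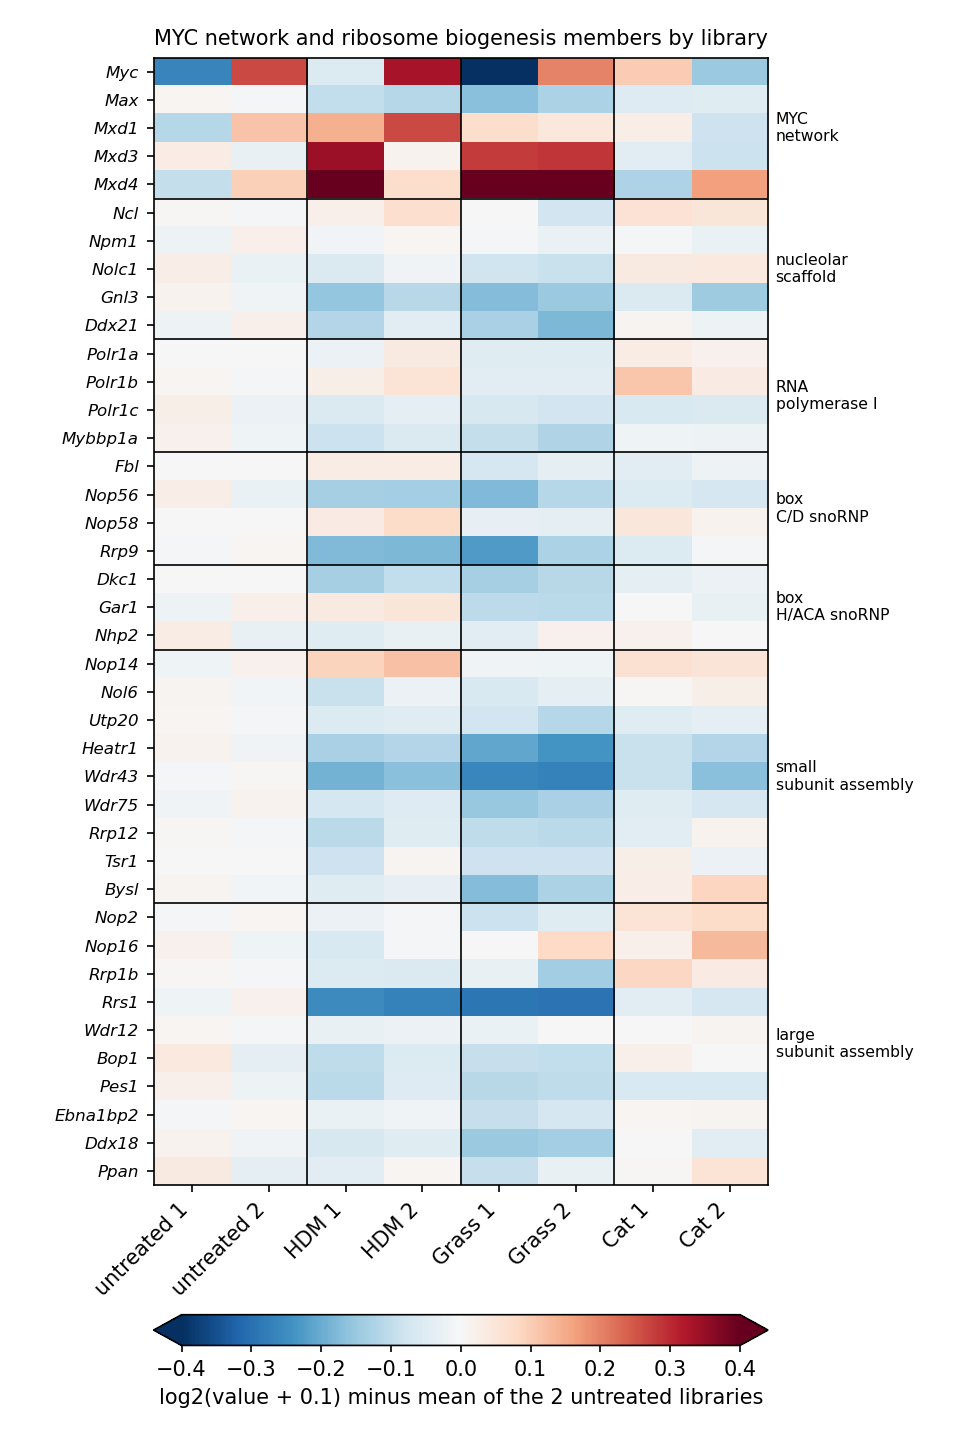
Each row is a member and each column a library, and colour gives log2(value + 0.1) minus the mean of the 2 untreated libraries (scale ends at -0.4 and 0.4). Rrs1 and Wdr43 are lower in the HDM and Grass libraries, Mxd4 is higher in both Grass libraries, and the Myc row (12 to 21 reads per library) varies as much within groups as between them.

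The ribosome biogenesis members moved by small amounts. Against untreated cells the log2 fold changes of the 35 lay between -0.26 and 0.10 with HDM, between -0.29 and 0.04 with Grass and between -0.13 and 0.07 with Cat. None of the 40 members is in the authors' 3 deposited tables of changed genes, whose smallest folds are 1.501, 1.502 and 1.507.

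Counted over all 40 members, limma called 11 lower and 1 higher with HDM, where 21.9% of all rows were called lower and 9.22% higher. With Grass 21 were called lower and 1 higher, beside 25.4% and 10.4% of all rows. With Cat 3 were called lower and 0 higher, beside 13.6% and 4.34%; of the 3, Wdr43 alone was kept by the TMM, DESeq2 and upper-quartile scalings. With the mean of the 3 extracts 14 were called lower and 0 higher, beside 25.8% and 10.4%. In 12 members each of the 6 allergen libraries was lower than either untreated library (25.2% of all rows), and in 0 members all 6 lay above (10.8% of all rows). The HDM and Cat shares are thus near or below the background, and the Grass share of 52.5% is above it with the deposited scaling. The counts of lower calls fell without HDM 1 for HDM and without Cat 2 for Cat, and so did the shares of all rows. Without HDM 1 the median log2 fold change of the 40 members with HDM was -0.03, beside -0.04 over all rows.

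The share of rows called lower was larger among abundant genes than over all rows. All 35 ribosome biogenesis members lie among the 4649 tested rows with a mean value of at least 50, a bound set after the values were seen. Of those rows 38.7% were called lower with HDM, 45.8% with Grass and 24.8% with Cat. The corresponding shares of the 35 members were 28.6%, 57.1% and 8.57%. The members' share was below that of these rows with HDM and Cat and above it with Grass, and these differences were not tested. The same rows were called higher in 6.93%, 7.06% and 4.04%, beside 9.22%, 10.4% and 4.34% of all rows. Why the abundant rows lay lower was not tested.

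**Figure D2:**
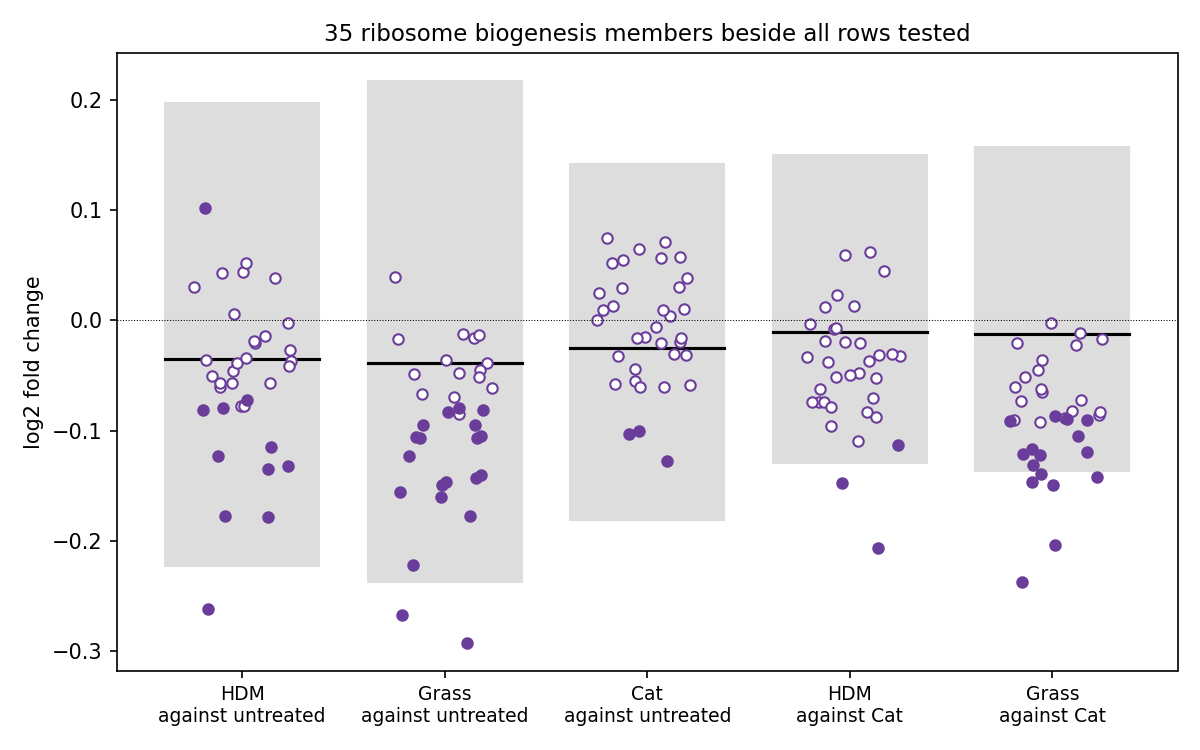
Points are the log2 fold changes of the 35 ribosome biogenesis members in 5 comparisons, filled where limma's adjusted p is under 0.05; the grey box spans the 10th to 90th percentile of all 11455 rows tested and the black line is their median. With the deposited scaling, all 35 points lie below zero for Grass against Cat (30 to 33 with the other scalings), and 34 of 35 for Grass against untreated (17 with scaling by total reads).

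The size of the shift against untreated cells depended on how the libraries were scaled. With the deposited scaling the 35 members had a median log2 fold change of -0.05 (HDM), -0.09 (Grass) and -0.01 (Cat), beside -0.03, -0.04 and -0.03 over all rows. Over the abundant rows above, which hold all 35, the medians were -0.06, -0.08 and -0.04. With TMM scaling the medians of the 35 members were -0.01, -0.04 and 0.02. With scaling by total reads, added after the data were seen, they were 0.03, 0.01 and 0.05. The number of members called lower with Grass was 12 with TMM, 13 with DESeq2 size factors, 10 with upper-quartile factors and 4 with total reads. As shares these are 30%, 32.5%, 25% and 10% of the members, beside 16%, 17.2%, 13.6% and 10.7% of all rows, so that with total reads the members' share was not above the background. Over all rows, the share of calls that were higher went from 29.1% to 48.7% with TMM and to 69.5% with total reads for Grass. For HDM it went from 29.6% to 48.6% and 68.7%, and for Cat from 24.1% to 42.8% and 64.2%. Called lower with Grass under the deposited and all 4 other scalings were Rrs1, Wdr43, Heatr1 and Rrp9. With HDM these were Rrs1, Wdr43 and Rrp9.

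**Figure D3:**
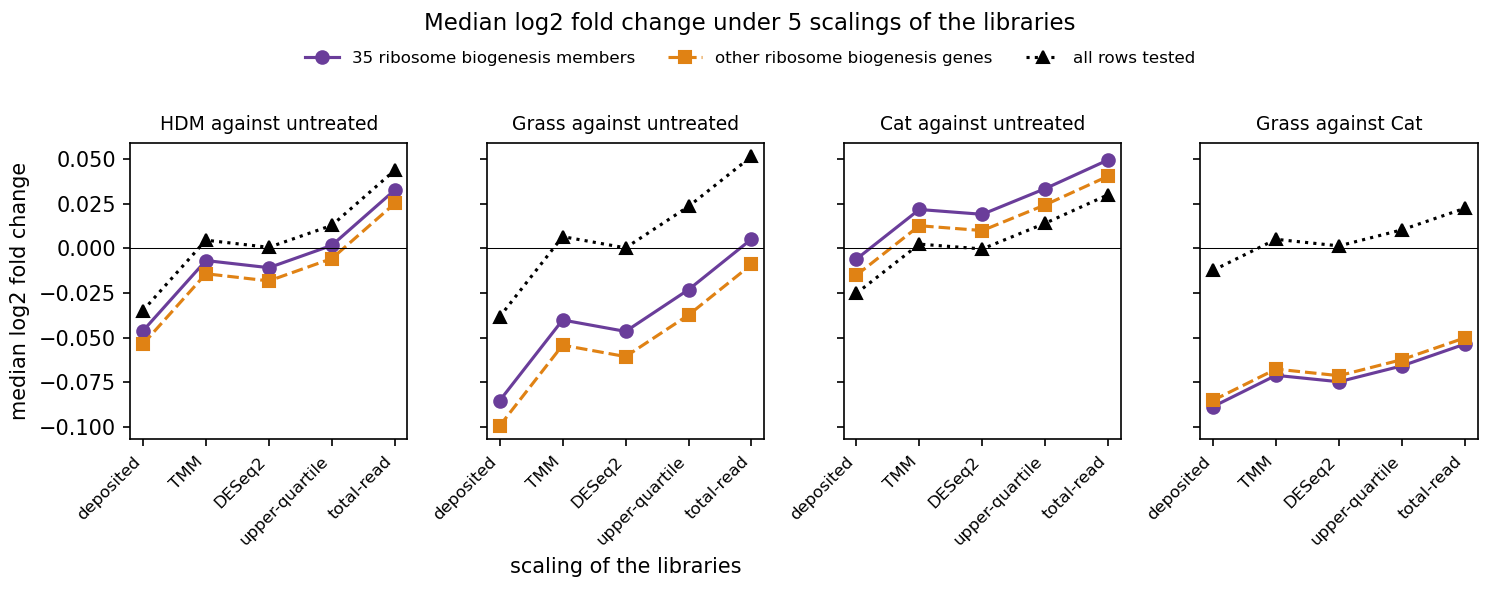
Median log2 fold change (vertical axis) of the 35 ribosome biogenesis members, of 118 other ribosome biogenesis genes and of all rows tested, under 5 scalings of the libraries (horizontal axis). Against untreated cells the members' median crosses zero between scalings in each panel (HDM -0.05 to 0.03, Grass -0.09 to 0.01, Cat -0.01 to 0.05), and for Grass against Cat it stays between -0.09 and -0.05.

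Among the assembly factors of the large subunit, Rrs1 had the largest change of the 35 members. RRS1 is known from yeast to help bring the 5S RNA particle into the large subunit precursor. It was at 163 and 166 in untreated cells, 138 and 137 with HDM, 135 and 134 with Grass, and 160 and 157 with Cat. The HDM and Grass libraries lay together, well below the untreated and Cat libraries. It fell by 16.6% with HDM (log2 -0.26, SE 0.03, limma adjusted p = 1.9e-07) and by 18.3% with Grass (log2 -0.29, SE 0.03, adjusted p = 2.64e-08). With Cat the log2 fold change was -0.05 (SE 0.03, adjusted p = 0.217). The HDM and Grass calls were kept under all 21 alternatives run, with ranges of -0.28 to -0.18 and -0.31 to -0.20.

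Pes1, which with Bop1 and Wdr12 forms the PeBoW complex, was at 259 and 252 in untreated cells, 237 and 246 with HDM, 236 and 238 with Grass, and 245 and 245 with Cat. It fell with HDM (log2 -0.08, SE 0.03, limma adjusted p = 0.0342) and with Grass (log2 -0.11, SE 0.03, adjusted p = 0.00545), and both calls were lost with each of the 4 other scalings. Ddx18, an RNA helicase, was at 219 and 215, 207 and 210, 196 and 197, and 217 and 211. Its Grass libraries were the lowest, and it fell with Grass by 0.14 (log2; SE 0.03, adjusted p = 0.000349), a call lost with total reads. Bop1 and Ebna1bp2 were also called lower with Grass, Bop1 with a log2 fold change of -0.10 (SE 0.03) and Ebna1bp2 with -0.08 (SE 0.03); both calls were lost with each of the other scalings. Nop2, Nop16, Rrp1b, Wdr12 and Ppan were not called against untreated cells, with log2 fold changes between -0.09 and 0.07.

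Among the factors of the small subunit, Wdr43 and Heatr1 fell furthest. Both belong, with Wdr75, to the complex that loads first on the ribosomal RNA precursor. Wdr43 was at 332 and 334 in untreated cells, 292 and 296 with HDM, 277 and 276 with Grass, and 313 and 297 with Cat. All 6 allergen libraries lay below the untreated ones and the Grass libraries were the lowest. It fell with HDM (log2 -0.18, SE 0.03, limma adjusted p = 3.51e-05), with Grass (log2 -0.27, SE 0.03, adjusted p = 7.76e-08) and with Cat (log2 -0.13, SE 0.03, adjusted p = 0.00289). The HDM and Grass calls were kept under all 21 alternatives, and the Cat call was lost with total reads, without limma's trend and robust settings, and without Cat 2.

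Heatr1 was at 310 and 304 in untreated cells, 281 and 283 with HDM, 266 and 260 with Grass, and 289 and 283 with Cat. The order of the groups was the same as for Wdr43, with HDM and Cat overlapping. Both were lower than untreated, and the HDM call was lost with total reads. Its log2 fold changes were -0.12 (SE 0.03, limma adjusted p = 0.0014) with HDM, -0.22 (SE 0.03, adjusted p = 7.28e-07) with Grass and -0.10 (SE 0.03, adjusted p = 0.0108) with Cat. The Cat call was lost with all 4 other scalings and without Cat 2. Wdr75 was at 146 and 149, 141 and 143, 133 and 135, and 143 and 141, and fell with Grass (log2 -0.14, SE 0.03, adjusted p = 0.000635), a call lost with total reads. The other factors of the small subunit called lower with Grass were Bysl, Utp20, Rrp12 and Tsr1, with log2 fold changes between -0.15 and -0.08. The Bysl call was lost with upper-quartile and total-read scaling, and the calls of Utp20, Rrp12 and Tsr1 with all 4 other scalings.

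Nop14, which binds the small subunit precursor, went the other way with HDM. It was at 175 and 180 in untreated cells, 189 and 192 with HDM, 176 and 175 with Grass, and 185 and 184 with Cat. The HDM libraries were the highest and the Grass libraries lay with the untreated ones. It rose with HDM by 0.10 (log2; SE 0.03, limma adjusted p = 0.00851), was the only one of the 35 called higher against untreated cells with the deposited scaling, and was kept by all 4 other scalings. The call was lost without HDM 2 and without limma's trend and robust settings.

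**Figure D4:**
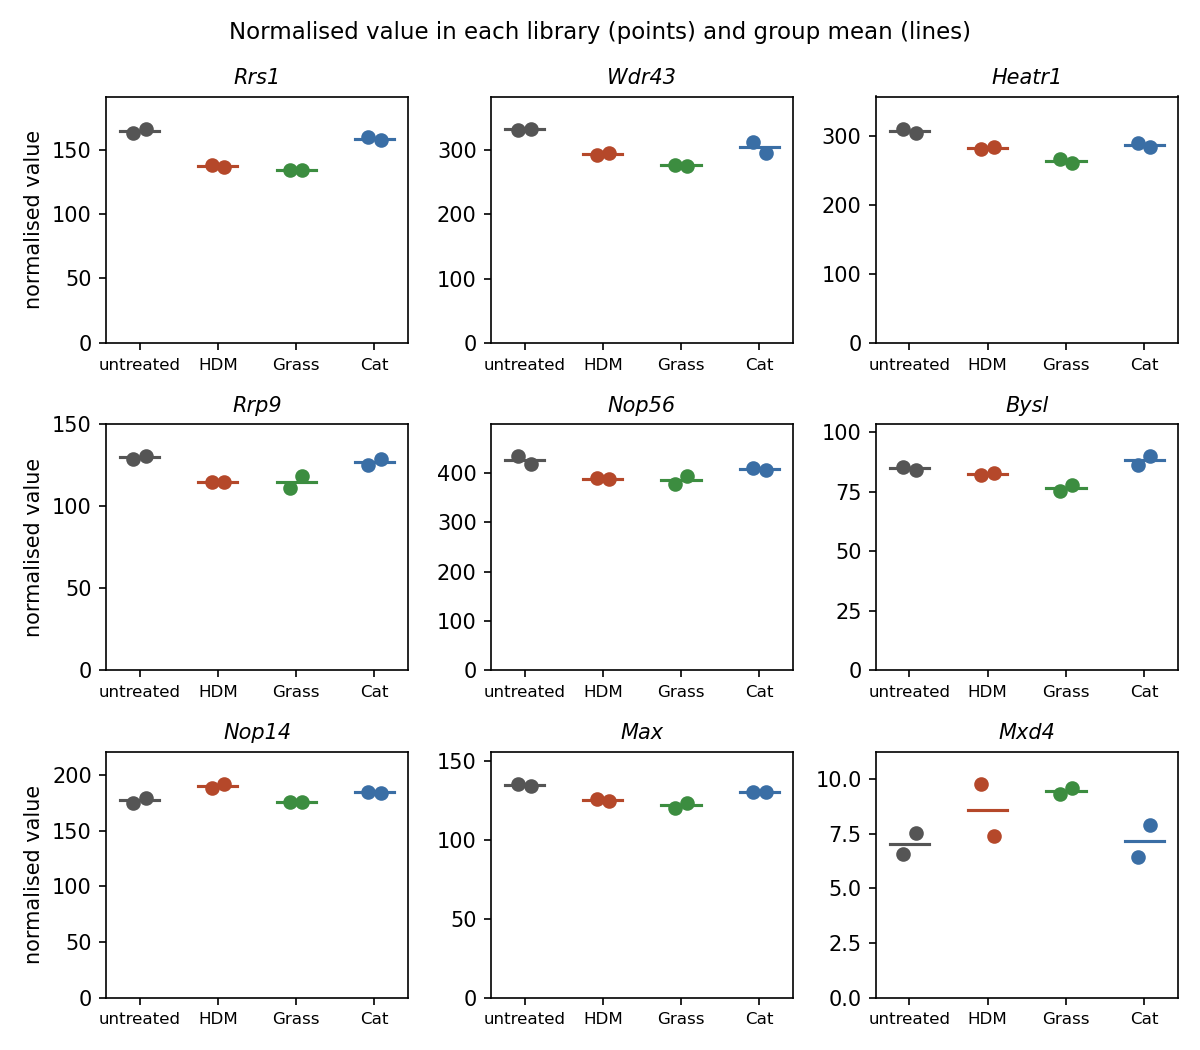
Normalised value of 9 members in each library (points) and the mean of each group (lines), with the vertical axes starting at 0. Rrs1 sits at 134 to 138 with HDM and Grass and at 157 to 166 in untreated and Cat libraries, Bysl is lowest with Grass, and Nop14 is highest with HDM.

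The nucleolar scaffold genes split by member. Nucleolin (Ncl) and nucleophosmin (Npm1), the most abundant of the 40 by value, were not called against untreated cells; Ncl was between 2544 and 2810 and Npm1 between 2106 and 2174 over the 8 libraries. The genome carries processed copies of Npm1, so its count is uncertain. Gnl3, which encodes the nucleolar GTPase nucleostemin, was at 210 and 206 in untreated cells, 187 and 192 with HDM, 184 and 187 with Grass, and 199 and 188 with Cat. All 6 allergen libraries lay below the untreated ones. Gnl3 fell with HDM (log2 -0.13, SE 0.03, limma adjusted p = 0.00213), with Grass (log2 -0.16, SE 0.03, adjusted p = 0.000256) and with Cat (log2 -0.10, SE 0.03, adjusted p = 0.0273); the Grass call was lost with total reads alone, the HDM call under 4 of 21 alternatives (among them total reads and without HDM 1), and the Cat call under 11 of 21 (among them all 4 other scalings, without Cat 2 and without untreated 1). Ddx21, a nucleolar RNA helicase, was at 330 and 339, 308 and 324, 305 and 295, and 336 and 329. It fell with Grass (log2 -0.16, SE 0.03, adjusted p = 0.000229) and with HDM (log2 -0.08, SE 0.03, adjusted p = 0.046). Of the 4 other scalings the Grass call was lost with total reads, and the HDM call was lost under 16 of 21 alternatives. Nolc1 was called lower with Grass (log2 -0.08, SE 0.03), a call lost with each of the other scalings.

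The RNA polymerase I genes changed little. Polr1a and Polr1b, which encode its largest subunits, were not called against untreated cells. Polr1c, a subunit shared with RNA polymerase III, was at 68.7 and 66.5 in untreated cells, 65.0 and 65.9 with HDM, 64.7 and 64.1 with Grass, and 64.8 and 64.9 with Cat. All 6 allergen libraries lay below the untreated ones, but the log2 fold changes of -0.05, -0.07 and -0.06 (SE 0.04 each) missed the threshold. Mybbp1a, a nucleolar protein that associates with the polymerase, was at 940 and 919, 875 and 893, 870 and 856, and 917 and 915. It fell with HDM by 0.07 (log2; SE 0.03, limma adjusted p = 0.0316) and with Grass by 0.11 (log2; SE 0.03, adjusted p = 0.00166), and with total reads the HDM value turned to 0.01. The HDM call was lost with all 4 other scalings and the Grass call with 3 of them.

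In the box C/D snoRNP, the particle that methylates ribosomal RNA, Nop56 and Rrp9 fell while fibrillarin (Fbl), its methyltransferase, and Nop58 were not called. Nop56 was at 434 and 419 in untreated cells, 389 and 388 with HDM, 377 and 394 with Grass, and 411 and 407 with Cat. Nop56 fell with HDM (log2 -0.13, SE 0.03, limma adjusted p = 0.000704) and with Grass (log2 -0.15, SE 0.03, adjusted p = 0.000235), and both calls were lost only with total reads. Rrp9, a protein particular to the U3 snoRNP, was at 129 and 131, 115 and 115, 111 and 119, and 125 and 129. Its HDM and Grass libraries lay below all the others. It fell by 0.18 with each (log2; SE 0.03, adjusted p = 0.000269 with HDM and 0.000215 with Grass), and both calls were kept under all 21 alternatives. In the box H/ACA snoRNP, which makes pseudouridine, the catalytic subunit Dkc1 was at 205 and 205 in untreated cells, 187 and 191 with HDM, 187 and 190 with Grass, and 199 and 201 with Cat. It fell with HDM and Grass (log2 -0.12, SE 0.03 each; adjusted p = 0.00287 and 0.00134). Both Dkc1 calls were lost with upper-quartile and total-read scaling, and the HDM call without HDM 1. Its partner Gar1 was at 107 and 110, 111 and 112, 101 and 101, and 108 and 106, and fell with Grass (log2 -0.11, SE 0.03, adjusted p = 0.0114), a call lost with each of the 4 other scalings. Nhp2 was not called in any comparison.

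The direct comparison of extracts does not involve the untreated libraries in its fold change and was less sensitive to scaling. Between Grass and Cat 18 of the 40 members were called, 17 lower with Grass and 1 (Mxd4) higher, where 11.8% of all rows were called. All 35 ribosome biogenesis members had a log2 fold change below zero, with a median of -0.09 beside -0.01 over all rows; 55% of all rows were below zero. Of the 35 members 45.7% were called lower, beside 15.8% of the 4649 rows with a mean value of at least 50. Those rows had a median of -0.03, and 70.7% of them were below zero. With the 4 other scalings the median of the 35 was between -0.07 and -0.05, and 30 to 33 of them were below zero. Of all rows 4.55% to 6.49% were called lower with these scalings, and 1.72% without limma's trend and robust settings. Of the members 9 to 12 were called lower with the 4 scalings. The count over both directions was 2 without limma's trend and robust settings. It fell without any 1 of the Grass or Cat libraries and rose without either untreated library. The share of all rows called lower moved the same way. The median of the 35 members was -0.08 without Grass 1, -0.09 without Grass 2 and -0.08 without Cat 1.

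The members called lower with Grass than with Cat by the deposited and all 4 other scalings were Rrs1, Bysl, Ddx21, Rrp9, Wdr43, Rrp1b, Nop2, Nolc1 and Heatr1. Rrs1 differed by -0.24 (log2; SE 0.03, limma adjusted p = 3.19e-06). Bysl, which encodes bystin, a factor of late small subunit assembly, was at 75.3 and 77.8 with Grass, 86.4 and 90.1 with Cat, 85.6 and 84.2 in untreated cells and 82.1 and 82.9 with HDM. The Grass libraries were the lowest and the Cat libraries the highest. Bysl differed by -0.20 (log2; SE 0.04, adjusted p = 0.000254), and this call and that of Rrs1 were kept under all 21 alternatives. It shares 361 exon bases with Ccnd3 on the other strand, and Ccnd3 itself differed by -0.00 (log2; SE 0.03, adjusted p = 0.963).

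Nop2, which methylates large subunit RNA, was at 225 and 230 with Grass, 247 and 251 with Cat, 237 and 240 in untreated cells and 234 and 237 with HDM. It had not been called against untreated cells with either extract, and Grass and Cat differed by -0.13 (log2; SE 0.03, limma adjusted p = 0.00221). Rrp1b, a nucleolar factor of the large subunit, was at 111 and 103 with Grass, 120 and 116 with Cat, 114 and 113 in untreated cells, and 109 and 109 with HDM. Nolc1, which associates with snoRNPs, was at 459 and 456 with Grass, 497 and 499 with Cat, 494 and 476 in untreated cells and 466 and 480 with HDM. In these genes the untreated libraries lay between those of Grass and Cat. The other members called lower with Grass than with Cat were Ddx18, Polr1b, Ncl, Mybbp1a, Bop1, Dkc1, Max and Ebna1bp2, with log2 fold changes between -0.12 and -0.09; of these, Ddx18 and Polr1b were kept by the TMM, DESeq2 and upper-quartile scalings. Polr1b was at 215 and 215 with Grass and 239 and 227 with Cat, and Ncl at 2682 and 2544 with Grass and 2792 and 2771 with Cat.

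Fewer members were called between HDM and the other extracts. Against Cat 3 of the 40 members were called, all lower with HDM, where 7.76% of all rows were called: Rrs1 (log2 -0.21, SE 0.03, limma adjusted p = 2.36e-05), Rrp9 (-0.15, SE 0.03, adjusted p = 0.00624) and Rrp1b (-0.11, SE 0.04, adjusted p = 0.0497). The Rrp1b call was lost under 14 of 21 alternatives. The count rose without either untreated library and fell without HDM 1 or Cat 2. The share of all rows called lower moved the same way. Against Grass 2 were called, both higher with HDM, where 2.31% of all rows were called: Gar1 (log2 0.15, SE 0.03, adjusted p = 0.00901) and Nop14 (0.12, SE 0.03, adjusted p = 0.024). Neither call outlasted leaving out any of the HDM or Grass libraries. The count rose without either untreated library, as did the number of all rows called. The mean log2 deviation of the 35 members from their average over the 8 libraries was 0.04 and 0.03 in untreated cells, -0.03 and 0.00 with HDM, -0.06 and -0.05 with Grass, and 0.03 and 0.03 with Cat. The Grass libraries were the lowest and HDM next, and the untreated and Cat libraries overlapped. The same measure over all rows, as a median, was 0.02 and 0.03 in untreated cells, -0.01 and -0.01 with HDM, -0.01 and -0.01 with Grass, and 0.00 and -0.00 with Cat, so that untreated 2 lay close to all rows. As a share of all reads the 35 members made up 1.219% and 1.196% in untreated cells, 1.237% and 1.269% with HDM, 1.226% and 1.215% with Grass, and 1.259% and 1.252% with Cat. On that measure untreated 2 was the lowest library, and the HDM and Cat libraries were the highest.

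Other genes of ribosome biogenesis were listed from textbook knowledge. Of 118 tested, 38 were called lower and 0 higher with HDM, 60 lower and 1 higher (Ubtf) with Grass, and 11 lower and 3 higher (Utp14a, Rcl1 and Aatf) with Cat. The shares called lower were 32.2%, 50.8% and 9.32%, beside 21.9%, 25.4% and 13.6% of all rows and 38.7%, 45.8% and 24.8% of the abundant rows above. Those rows are not matched to the 118 genes, of which Znrd1 was at 11.2 and 11.4 in untreated cells. With TMM 18, 30 and 5 were called lower and 5, 3 and 10 higher. With total reads 12, 22 and 1 were lower and 10, 9 and 19 higher, so that with Cat the calls turned to mostly higher. Of all rows 14.2%, 16% and 9.18% were called lower with TMM, and 9.36%, 10.7% and 6.37% with total reads. With Cat 788 of the 11455 rows were called higher with TMM and 1310 with total reads. The median log2 fold changes of the 118 genes were -0.05, -0.10 and -0.015, and with total reads 0.03, -0.01 and 0.04. Grass against Cat gave 42 lower (35.6%) and 0 higher, beside 8.23% and 3.58% of all rows. Of the abundant rows 15.8% were called lower in that comparison. Below zero were 111 of 118, beside 55% of all rows and 70.7% of the abundant rows. The median of the 118 was -0.09, which was -0.05 with total reads. None of these genes is in the authors' deposited tables.

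By list, with HDM, Grass and Cat in that order, 5, 6 and 2 of 13 RNA polymerase I genes were called lower, 3, 4 and 0 of 12 snoRNP genes, 13, 23 and 4 of 42 small subunit factors, and 17, 27 and 5 of 51 large subunit factors. The snoRNP shares of 25%, 33.3% and 0% were near or below those of all rows, as were the 4 Cat shares (0% to 15.4%), and with Grass both subunit lists (54.8% and 52.9%) were above them. The small subunit factor Nol10 was at 83.5 and 81.1 in untreated cells, 64.7 and 69.9 with HDM, 67.1 and 62.7 with Grass, and 79.6 and 77.8 with Cat. It had the lowest Grass fold change of the 118 (log2 -0.34, SE 0.04, limma adjusted p = 4.78e-07), with the HDM and Grass libraries apart from the rest. The large subunit factor Urb2 was at 138 and 134, 111 and 113, 110 and 110, and 125 and 126, with Cat between untreated and the other extracts. It fell with HDM by 0.28, with Grass by 0.30 and with Cat by 0.12 (log2; SE 0.03 each, adjusted p = 1.62e-07, 2.94e-08 and 0.01), the Cat call being lost under 8 of 21 alternatives. Naf1, which assembles box H/ACA particles, fell by 0.23 with HDM and by 0.27 with Grass (log2; SE 0.04 each), and Taf1d, a subunit of the selectivity factor of RNA polymerase I, fell by 0.23 with HDM, by 0.23 with Grass and by 0.16 with Cat (SE 0.04 each; the Cat call was lost with total reads and without Cat 2, among others).

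**Figure D5:**
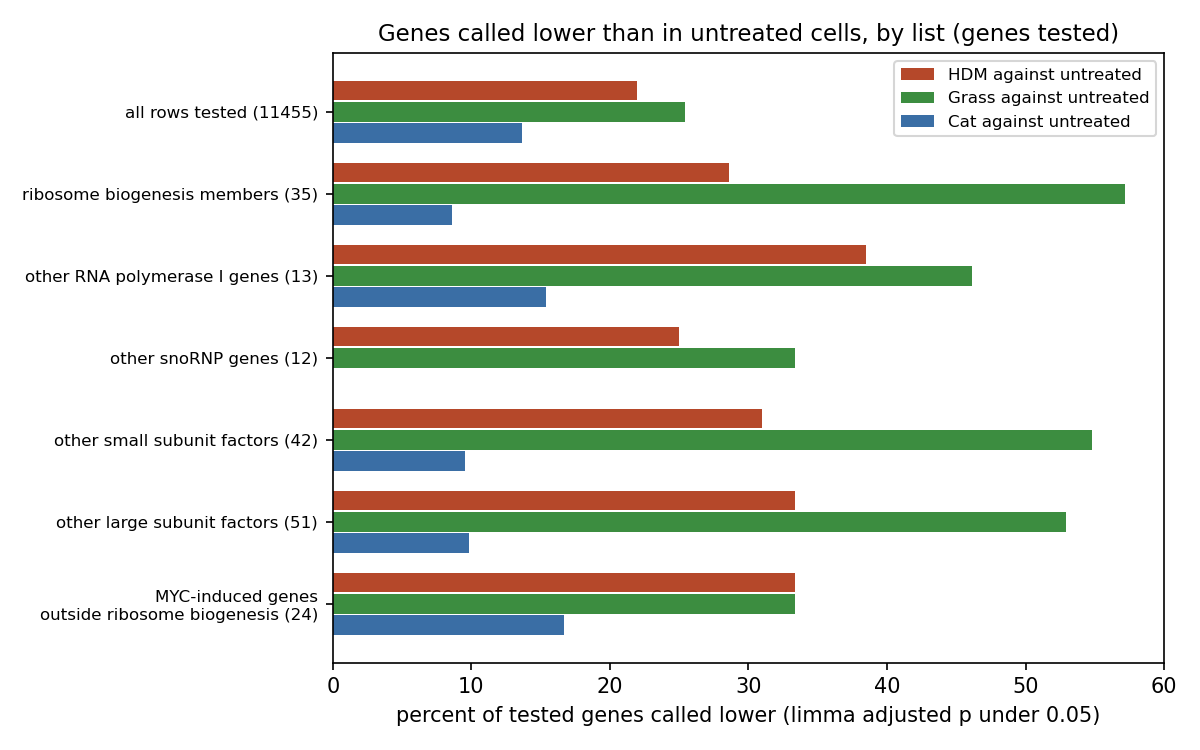
Percent of tested genes called lower than in untreated cells (horizontal axis, limma adjusted p under 0.05, deposited scaling) for all rows, the 35 members and 5 further lists, with the number of genes tested in brackets. The Grass bars of the members (20 of 35) and of both subunit lists (23 of 42 and 27 of 51) are the longest, and with Grass the count of lower members is 11 with TMM and 4 with total reads.

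MYC-induced genes outside ribosome biogenesis were called lower in 8 of 24 (HDM), 8 (Grass) and 4 (Cat), and higher in 2, 0 and 0. Their shares called lower of 33.3%, 33.3% and 16.7% lie above those of all rows (21.9%, 25.4% and 13.6%) and below those of the abundant rows above (38.7%, 45.8% and 24.8%). How many of these 24 genes are among the abundant rows was not counted. Their median log2 fold change was -0.04, -0.05 and -0.0047 with the deposited scaling and turned to 0.04, 0.04 and 0.05 with total reads, which called 2, 5 and 0 lower and 8, 8 and 5 higher. Eif4e, the cap-binding translation factor, was at 373 and 373 in untreated cells, 321 and 325 with HDM, 312 and 317 with Grass, and 348 and 337 with Cat, so that all 6 allergen libraries were lower. It fell by 0.21, by 0.25 and by 0.12 (log2; SE 0.03 each, limma adjusted p = 1.98e-06, 1.11e-07 and 0.00256), and the Cat call was lost under 3 of 21 alternatives, among them total reads and without Cat 2. Odc1, the first enzyme of polyamine synthesis, was at 828 and 854, 756 and 776, 726 and 742, and 820 and 815, and fell with HDM by 0.13 and with Grass by 0.20 (log2; SE 0.03 each). The 2 called higher with HDM were Cdca7 (0.20, SE 0.03) and Impdh2 (0.07, SE 0.03), named after their values were seen. Of 4 tested MYC-repressed genes 2 were called higher and 0 lower with HDM, 1 and 0 with Grass, and 0 and 2 with Cat. Called higher were 9.22%, 10.4% and 4.34% of all rows, and the lower shares of all rows are given above. Gadd45a, a stress-induced growth arrest gene, rose with HDM (0.51, SE 0.11) and Grass (0.45, SE 0.11). Without untreated 1 its Grass value was 0.29 and the call was lost. The cell cycle inhibitor Cdkn1a rose with HDM (0.24, SE 0.05). Ndrg1 fell with Cat (-0.31, SE 0.03) and was not called with HDM (-0.02, SE 0.03) or Grass (-0.08, SE 0.03). The other gene of the 2 called lower with Cat was not among those named by the smallest p. With only 12 to 21 Myc reads per library, whether these values follow Myc was not tested.

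Of the 40 members, 18 share exon bases with a gene on the other strand in GENCODE M21, 14 of them with a protein-coding gene. The library kit marks strand, per the labels' protocols, but the strand setting of the counting is not stated. The largest overlap is 1240 bases, between Tsr1 and Srr. It is 144 bases between Nop14 and the antisense gene Gm15522, 138 between Pes1 and 4930556J24Rik, and 131 between Mybbp1a and Spns2. The overlap is 20 bases between Rrp9 and Parp3, 15 between Gnl3 and Pbrm1, and 155 between Heatr1 and Lgals8. With Grass, Parp3 changed by -0.15 (log2; SE 0.06), Pbrm1 by -0.16 (SE 0.03) and Lgals8 by -0.17 (SE 0.08, not called). In addition 8 members hold genes of small nucleolar RNAs, among them Nop56 (5) and Wdr43 (3). The share of these overlaps in the members' values was not tested.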

How the data were processed

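Per the submitters' processing notes, the tools were RSEM 1.2.15, Bowtie2 2.1.0 and edgeR (no version), with mouse build mm9, in no stated role or order. Libraries were of mRNA, and their kit keeps strand, per the labels' protocols; annotation and strand setting are not given in the sources used here. Although named raw counts, the deposited values per gene are a scaled signal: dividing a library's values by its smallest step gave whole reads to within 9.9e-10 of a read for 100% of nonzero values (within 0.01). The authors' 3 tables of changed genes give a deposited fold and were searched for the members; their 12 columns of values per library repeat the table of all genes and were not used.

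Since the deposited signal is not raw counts, limma 3.58.1 was run in R 4.3.3 with trend and robust settings, on log2(value + 0.1), on the 11455 of 24054 rows at 0.5 or more in at least 2 of 8 libraries. The fit took all 8 libraries, which leaves 4 residual degrees of freedom. To these limma adds prior degrees of freedom, since its settings draw each gene's spread toward a trend over all rows. Members are called at an adjusted p under 0.05 (Benjamini-Hochberg over all rows of a comparison). The comparisons with untreated share their controls. EdgeR 4.0.16 and DESeq2 1.42.0 were run on recovered reads as alternatives, beside other scalings, filters and left-out libraries. Under the stricter filter (1 or more in 4 libraries) Myc was not tested.

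Replicates of each group differed by more than sampling noise (chi-square over degrees of freedom 2.22 to 4.42). Values in every library are given for the MYC network, for the 2 or 3 members of each other role with the smallest p over all extracts, and for the members the text turns on between extracts; others are given by range. From each wider list the named genes come from the 3 with the smallest p; Mxi1, Ubtf, Utp14a, Rcl1, Aatf, Cdca7, Impdh2, the paralogs of Myc and the overlapping genes were named after their values were seen. The members and lists were chosen with earlier results of these data known. Promoters come from RefSeq (GRCm38.p6) and overlaps from GENCODE M21, neither on the build of the files, and were matched by symbol.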

Additional observations from a re-analysis of the deposited data

Results flagged for a closer look

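Of the members, 23 differences between extracts passed limma's test of the difference itself (Benjamini-Hochberg adjusted p under 0.05), each on the log2 scale. They made up 5% (HDM against Grass), 7.5% (HDM against Cat) and 45% (Grass against Cat) of the members. Of all rows 2.31%, 7.76% and 11.8% were called, so the HDM against Cat share was at the background. Between HDM and Grass the members called were Gar1 at 0.1490 and Nop14 at 0.1180, both higher with HDM. Both calls were lost without limma's trend and robust settings. HDM was lower than Cat for Rrs1 (-0.2068), Rrp9 (-0.1471) and Rrp1b (-0.1132), and the Rrp1b call was lost with all 4 other scalings.

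Grass was lower than Cat for Rrs1 (-0.2376), Bysl (-0.2041), Ddx21 (-0.1494), Rrp9 (-0.1469), Rrp1b (-0.1423), Wdr43 (-0.1397), Nop2 (-0.1315), Ddx18 (-0.1220), Nolc1 (-0.1213), Heatr1 (-0.1196) and Polr1b (-0.1163). Smaller values were those of Bop1 (-0.1050), Max (-0.0970), Ncl (-0.0909), Dkc1 (-0.0907), Ebna1bp2 (-0.0895) and Mybbp1a (-0.0865). Mxd4 was the exception, higher with Grass by 0.4018. Of these 18 members, Rrs1 and Bysl kept their call under all 21 alternatives.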

How the results depend on the processing

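Calls against untreated cells moved with the scaling. With HDM the members called higher went from 1 to 4 (TMM), 4 (DESeq2 size factors), 7 (upper quartile), 10 (total reads, chosen after seeing the data), 5 (edgeR with TMM and filterByExpr), 3 (DESeq2) and 0 (limma without trend and robust settings). Those called lower went, in the same order, from 11 to 7, 7, 6, 3, 7, 5 and 6. Over all rows in that order, higher calls went from 1056 to 1536, 1479, 1664, 2354, 1491, 760 and 733. Lower calls went from 21.9% of all rows to 14.2%, 14.8%, 12.9%, 9.36%, 13.4%, 7.3% and 13.3%. In these settings 11455 rows were tested, but 11988 with edgeR and 16242 with DESeq2. With Grass the members called higher went from 1 to 2 (upper quartile), 5 (total reads) and 0 (limma without trend and robust settings). Over all rows, higher calls in these settings went from 1193 to 2095, 2775 and 953. Members called lower with Grass went from 21 to 12 (TMM), 13 (DESeq2 size factors), 10 (upper quartile), 4 (total reads), 12 (edgeR with TMM) and 11 (DESeq2). Over all rows in that order, lower calls went from 25.4% to 16%, 17.2%, 13.6%, 10.7%, 16% and 9.11%. With Cat, in the same order, higher calls of members went from 0 to 4, 3, 4, 9, 4 and 2. Lower ones went from 3 to 1, 1, 1, 0, 1 and 1, and to 0 without trend and robust settings. Over all rows, higher calls with Cat went from 497 to 788, 765, 955, 1310, 756 and 295. Lower ones went from 13.6% to 9.18%, 9.57%, 7.84%, 6.37%, 8.63% and 4.37%, and to 3.37% without trend and robust settings. For the mean of the extracts higher calls of members went from 0 to 3, 3, 5, 10, 2 and 1. Lower ones went from 14 to 6, 7, 6, 3, 6 and 6, and to 9 without trend and robust settings. Over all rows, higher calls for this mean went from 1188 to 1804, 1728, 2090, 2868, 1739 and 910. Lower ones went from 25.8% to 16.6%, 17.5%, 14.3%, 10.8%, 16.1% and 8.91%, and to 17.8% without trend and robust settings. Between HDM and Grass the 2 calls became 1 (upper quartile, no filter on low values, or DESeq2), 0 (no trend and robust settings) or 8 (only the groups compared). All of these calls were higher with HDM. Of all rows, those called higher with HDM than with Grass went from 194 to 163, 129, 135, 39 and 402 in that order. Between HDM and Cat the 3 calls became 1 without trend and robust settings and 10 with only the groups compared. Members called lower with HDM than with Cat went from 3 to 1 and 9 in these settings, and all rows called lower from 4.82% to 1.08% and 7.05%. Between Grass and Cat the 18 calls became 10 (total reads or DESeq2) and 2 (no trend and robust settings). Members called lower with Grass than with Cat went from 17 to 9 (total reads), 10 (DESeq2) and 2 (no trend and robust settings). All rows called lower went from 8.23% to 4.55%, 2.79% and 1.72% in that order. The cause of these differences was not tested.

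Scaling by total reads turned some values. With HDM Npm1 became 0.0768 and Mybbp1a 0.0072. With Grass Npm1 became 0.0735, Nolc1 0.0077, Nop14 0.0743, Tsr1 0.0091 and Ebna1bp2 0.0112. For the mean of the extracts Npm1 became 0.0636, Polr1a 0.0694, Mybbp1a 0.0090, Fbl 0.0575, Utp20 0.0120, Nop2 0.0696, Ddx18 0.0016 and Nop10 0.0039. This scaling shifted log2 fold changes by 0.08 (HDM), 0.09 (Grass) and 0.06 (Cat). Leaving out 1 library gave 1 to 2 members higher and 6 to 11 lower with HDM, 0 to 1 higher with Grass, 0 to 4 lower with Cat, 0 to 1 higher for the mean of the extracts, and 0 to 8, 1 to 10 and 6 to 26 called between HDM and Grass, HDM and Cat, and Grass and Cat. The labels number replicates 1 and 2 in each group. Same-numbered libraries correlated at -0.08 to 0.13, which shows no clear pairing but cannot tell whether they were prepared together. With a replicate block the lower calls of members were 10 (HDM), 20 (Grass) and 3 (Cat), and Grass against Cat gave 15. Of all rows 21.5%, 25%, 13% and 7.96% were called lower with that block. Depth limits Myc, at 12 to 21 reads per library.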
